A study of Mus musculus with 2 samples.

Results

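The 7 globin genes described here are Hba-x, Hba-a1 and Hba-a2 of the alpha cluster and Hbb-y, Hbb-bh1, Hbb-bs and Hbb-bt of the beta cluster, chosen by their GENCODE symbols from 43346 mouse genes. They hold 12 of the listed transcripts. Their RNA was measured in whole hearts of B6NCrl mouse embryos, a C57BL/6N substrain, at embryonic day 10.5. There was 1 group of 2 libraries, and the labels name no treatment and no altered genotype. Replicate 1 was a pool of hearts from 69 embryos and replicate 2 a separate pool from 51 embryos, each of both sexes. Each library was made from 10 ng of total RNA over 200 nt with ERCC spike-ins, synthetic RNAs of known amount. The samples hold no second condition, so globin genes are compared with each other within each pool, and the pools are compared with each other. Means carry their SD over n = 2 pools, and no p-value was computed.

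Hemoglobin is a tetramer of alpha-type and beta-type chains that carries oxygen in red cells. In the mouse the first, primitive red cells arise in the yolk sac and use the embryonic chains zeta (Hba-x), epsilon-y (Hbb-y) and beta-h1 (Hbb-bh1), with which the alpha chains of Hba-a1 and Hba-a2 are also made. The definitive red cells that follow from the fetal liver use the adult alpha chains with the adult beta chains of Hbb-bs and Hbb-bt. Heart muscle is not known as a site of hemoglobin synthesis, and the chambers of a beating embryonic heart hold blood.

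In each cluster the embryonic genes lie before the adult ones in the direction of transcription. Positions are those of GENCODE M21 on GRCm38 (mm10). On the plus strand of chromosome 11, Hba-x (ENSMUSG00000055609.4) spans 32276400 to 32278116, Hba-a1 (ENSMUSG00000069919.7) spans 32283511 to 32284465, and Hba-a2 (ENSMUSG00000069917.7) spans 32296489 to 32297298. On the minus strand of chromosome 7, Hbb-y (ENSMUSG00000052187.3) spans 103851749 to 103853216 and Hbb-bh1 (ENSMUSG00000052217.5) spans 103841637 to 103843164. Hbb-bs (ENSMUSG00000052305.5) spans 103826534 to 103828096 and Hbb-bt (ENSMUSG00000073940.3) spans 103812524 to 103813996. The alpha genes cover 20.9 kb and the beta genes 40.7 kb.

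The members differ greatly in how well a read can tell them apart, which bears on how certain each value is. The stretches below show this for 90 bases of coding sequence at the same place in every gene of a cluster, coding bases 355 to 444 of the beta genes and 336 to 425 of the alpha genes. They come from the GENCODE M21 transcripts, 5′ to 3′ on the coding strand. Capitals mark a base that differs from Hbb-bs in the beta genes and from Hba-a1 in the alpha genes.
Hbb-y, chr7:103851874-103851963, minus strand: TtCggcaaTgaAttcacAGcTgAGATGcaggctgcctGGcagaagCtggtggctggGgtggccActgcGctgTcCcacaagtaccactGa
Hbb-bh1, chr7:103841752-103841841, minus strand: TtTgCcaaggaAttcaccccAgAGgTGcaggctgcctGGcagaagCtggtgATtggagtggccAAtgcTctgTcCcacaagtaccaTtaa
Hbb-bt, chr7:103812656-103812745, minus strand: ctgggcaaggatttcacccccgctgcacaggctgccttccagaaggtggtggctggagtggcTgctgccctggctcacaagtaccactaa
Hbb-bs, chr7:103826665-103826754, minus strand: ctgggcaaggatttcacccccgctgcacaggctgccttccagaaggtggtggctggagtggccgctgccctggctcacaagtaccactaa
Hba-x, chr11:32277915-32278004, plus strand: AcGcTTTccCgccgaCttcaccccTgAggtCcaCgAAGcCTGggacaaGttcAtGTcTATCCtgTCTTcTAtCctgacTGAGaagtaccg
Hba-a2, chr11:32297115-32297204, plus strand: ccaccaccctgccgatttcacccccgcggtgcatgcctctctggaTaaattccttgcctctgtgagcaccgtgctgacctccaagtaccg
Hba-a1, chr11:32284298-32284387, plus strand: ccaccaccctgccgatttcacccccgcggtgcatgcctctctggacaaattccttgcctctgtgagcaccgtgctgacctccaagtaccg

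In these 90 bases Hbb-y differed from Hbb-bs at 21 positions, Hbb-bh1 at 20 and Hbb-bt at 1, while Hba-x differed from Hba-a1 at 37 and Hba-a2 at 1. Those single differences are the only ones in the whole coding sequence of each adult pair. Hbb-bs and Hbb-bt differed at coding base 417 of 444 (99.8% identical), and Hba-a1 and Hba-a2 at coding base 381 of 429 (99.8% identical), counted from the first base of the start codon. Hbb-y and Hbb-bh1 shared 76.4% of their coding bases without gaps, Hbb-y and Hbb-bs 74.3%, and Hba-x and Hba-a1 62.0%. Over whole transcripts, UTRs included, 56.5% of the 100-nt windows of the first listed Hba-a1 mRNA and 74.5% of those of the first listed Hba-a2 mRNA also occurred in the other gene. The figures were 62.6% for the first listed Hbb-bs mRNA and 54.8% for Hbb-bt. Most of the TPM of Hba-a1 and Hbb-bs was placed on other transcripts, typed by GENCODE as retained introns. For those the figures were 75.7% and 78.4%. No 100-nt window of Hba-x, Hbb-y or Hbb-bh1 occurred in another globin gene, so the embryonic genes can be told from the rest by any read of that length. The adult copies can be told apart only by reads that reach a base at which they differ.

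The bases before the RefSeq starts also differ within the family. The set of RefSeq promoters used here (GRCm38.p6) holds 6 of the members and has no entry for Hbb-bh1. 3 are shown, those of an embryonic beta, an adult beta and an adult alpha gene. Each was trimmed from 120 bases to leave out those in GENCODE exons, 9 in Hbb-y, 37 in Hbb-bs and 3 in Hba-a2. The others were not shown because more of their 120 bases lay in GENCODE exons, 73 in Hbb-bt and all 120 in Hba-x and Hba-a1. The Hbb-bs stretch ends at the RefSeq start but lies within the GENCODE span of the gene, which has a transcript that begins farther upstream. Capitals mark, on either strand, the CCAAT box by those letters, the element CACCC bound by factors of the Klf1 family, and the TATA box in the form TATAA as well as the form ATAAA.
Hbb-y, chr7:103853217-103853327, minus strand: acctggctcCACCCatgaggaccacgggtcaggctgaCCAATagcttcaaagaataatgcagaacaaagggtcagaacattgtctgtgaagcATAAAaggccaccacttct
Hbb-bs, chr7:103827929-103828011, minus strand: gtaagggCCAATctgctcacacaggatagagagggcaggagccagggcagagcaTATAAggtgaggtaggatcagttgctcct
Hba-a2, chr11:32296372-32296488, plus strand: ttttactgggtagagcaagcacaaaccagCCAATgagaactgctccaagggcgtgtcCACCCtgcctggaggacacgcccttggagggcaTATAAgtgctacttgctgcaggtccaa

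Within 120 bases before the RefSeq start, read on both strands, CACCC was found in all 6 member promoters and in 31.7% of 32851 promoters of the table, and CCAAT in 5 of the 6 (not in Hba-x) and in 21.3% of all. TATAA was in 5 of the 6 and in 11.8% of all, a motif added after the sequences were read, and ATAAA, which can overlap it, in 3 of the 6 and in 20.2% of all. CCNCNCCC, which can overlap CACCC, was in 3 of the 6 and 34.6% of all, and GATAA, the core bound by Gata1, in 1 of the 6 (Hba-x) and 10.5% of all. Within 250 bases GATAA was in 6 of the 6 and in 22.6% of all. These counts include bases in GENCODE exons, among them all 120 in Hba-x and Hba-a1, 73 in Hbb-bt and 37 in Hbb-bs. The CACCC of Hbb-bs, 90 bases before the start, lies in the part trimmed from the stretch shown. The 250 bases upstream were also compared in pairs without gaps, at the best shift of up to 5 bases. Hba-a1 and Hba-a2 were identical over 247 of 247 bases compared, Hbb-bs and Hbb-bt at 51.0% of bases, and every other pair at 28.9 to 32.4%. A base gained or lost in 1 gene lowers such a figure for all bases beyond it, so it can understate likeness. A match to these letters is a description of the sequence only.

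The embryonic beta genes dominated the beta cluster, and the embryonic zeta gene shared the alpha cluster with the adult genes. Hbb-y, the epsilon-y chain, reached 13858 TPM in replicate 1 and 18907 TPM in replicate 2 (16382 ± 3571 TPM), the highest mean TPM of all nuclear protein-coding genes. TPM is a level per length, scaled to a fixed total in each library. Hbb-bh1, the beta-h1 chain, had 7391 TPM in replicate 1 and 8358 TPM in replicate 2 (7874 ± 684 TPM), rank 4. Hba-x, the zeta chain, had 7102 TPM in replicate 1 and 7804 TPM in replicate 2 (7453 ± 496 TPM), rank 5. All 3 embryonic genes were thus among the 5 most abundant such genes, and each was higher in replicate 2.

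The adult alpha genes were of the same order as the embryonic ones. Hba-a2 had 7613 TPM in replicate 1 and 10397 TPM in replicate 2 (9005 ± 1969 TPM), rank 2. Hba-a1 had 4102 TPM in replicate 1 and 5537 TPM in replicate 2 (4819.5 ± 1015 TPM), rank 7. The adult beta genes stood far lower. Hbb-bt had 412 TPM in replicate 1 and 904 TPM in replicate 2 (658 ± 348 TPM), rank 169, and Hbb-bs had 75.6 TPM in replicate 1 and 111 TPM in replicate 2 (93.1 ± 24.8 TPM), rank 1651. In whole tissue, fewer cells of a type and less RNA per cell cannot be told apart.

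**Figure D1:**
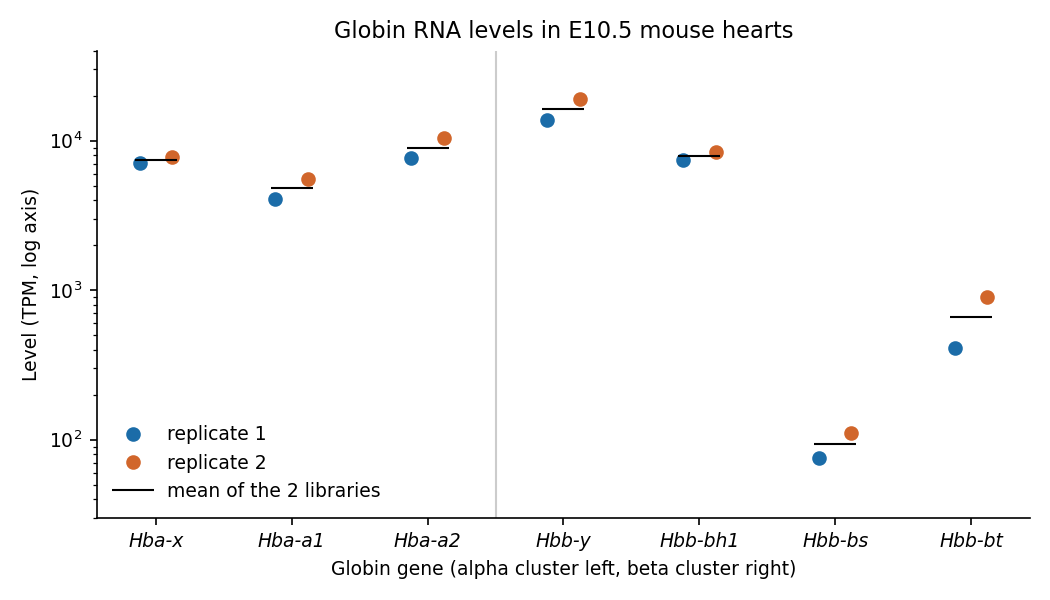
Levels of the 7 globin genes in TPM on a log axis, with replicate 1 (69 embryos) in blue, replicate 2 (51 embryos) in orange and a line at the mean of both. The 3 embryonic genes and both adult alpha genes lie between 4102 and 18907 TPM, and the adult beta genes between 75.6 and 904 TPM.

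Read in order, Hbb-y was above Hba-a2 by a log2 ratio of 0.86 in each library, with no overlap of their ranges. Hba-a2 and Hbb-bh1 overlapped over the 2 libraries (log2 ratio 0.18 ± 0.19), and so did Hbb-bh1 and Hba-x (0.08 ± 0.03), although the order by TPM was the same in each library. The order of these 3 genes depends on the unit. By expected counts, which are not divided by length, Hba-x (141334 in replicate 1, 139026 in replicate 2) was above both others in each library. Hbb-bh1 (115787) was then above Hba-a2 (105371) in replicate 1 and below it in replicate 2 (118057 against 129758). Hba-x lay above Hba-a1 by 0.64 ± 0.21, Hba-a1 above Hbb-bt by 2.97 ± 0.50, and Hbb-bt above Hbb-bs by 2.74 ± 0.41, each without overlap. The deposited credibility intervals of neighbours in this order did not overlap within either library. Those intervals were 0.812% and 0.739% of the level wide for Hbb-y in replicates 1 and 2, against 19.7% and 18.3% for Hbb-bs, and they do not cover the difference between pools. They belong to the deposited posterior mean and need not hold the TPM itself, as for Hbb-y in replicate 1, whose interval ran from 13541 to 13652 TPM around a posterior mean of 13597 TPM.

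Behind these levels were 236910 and 291454 expected counts of Hbb-y in replicates 1 and 2, and 115787 and 118057 of Hbb-bh1. Hba-x had 141334 and 139026, the one member whose count was higher in replicate 1, the deeper library. Hba-a2 had 105371 and 129758 and Hba-a1 had 54784 and 66385. Hbb-bt had 7568 and 14972, and Hbb-bs 1145 and 1481. The posterior SD of the count was 0 for Hbb-y, Hbb-bh1 and Hba-x in both libraries, as it is where no read is divided with another gene. It was 302 and 332 counts for Hba-a1 and Hba-a2, and 44.3 and 52.6 counts for Hbb-bs and Hbb-bt.

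Summed by cluster, alpha and beta RNA were close to balance, with the alpha sum a little lower. The alpha sum was 18817 TPM and the beta sum 21736 TPM in replicate 1, and 23739 TPM and 28279 TPM in replicate 2. The alpha sum was thus 0.866 times the beta sum in replicate 1 and 0.839 times in replicate 2, a log2 ratio of -0.23 ± 0.03. Both libraries gave the same direction. Together the 7 genes held 5.62 ± 0.908% of the TPM on nuclear protein-coding genes (4.98% for replicate 1, 6.27% for replicate 2). Of the expected counts of those genes, which are not divided by length, they held 1.80 ± 0.283%.

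Within the beta cluster the embryonic genes held 97.8% of the TPM in replicate 1 and 96.4% in replicate 2 (97.1 ± 0.950%). Hbb-y alone held 63.8% and 66.9% in replicates 1 and 2, and Hbb-bh1 34.0% and 29.6%. Hbb-bh1 was therefore at 0.533 times the level of Hbb-y in replicate 1 and 0.442 times in replicate 2, a log2 ratio of -1.04 ± 0.19. The embryonic sum exceeded the adult sum 43.6-fold in replicate 1 (21249 against 488 TPM) and 26.9-fold in replicate 2 (27265 against 1014 TPM). Hbb-y stood 183-fold above Hbb-bs in replicate 1 and 171-fold in replicate 2.

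Within the alpha cluster the division was different. Hba-x held 37.7% of the TPM in replicate 1 and 32.9% in replicate 2 (35.3 ± 3.44%), and the adult genes held 62.3% and 67.1%. Hba-x was at 0.606 times the sum of Hba-a1 and Hba-a2 in replicate 1 and at 0.490 times in replicate 2, a log2 ratio of -0.88 ± 0.22. By expected counts, which are not divided by length, this log2 ratio was -0.34 ± 0.22 and the share of Hba-x 44.2 ± 3.82%. The transcript models bear on this through length. The first listed mRNA begins 200 nt upstream of the RefSeq start in Hba-x and 161 nt upstream in Hba-a1, against 3 nt in Hba-a2. Most of the Hba-a1 TPM was placed on a shorter model of 494 nt, however. The gene lengths in replicate 1 were 753 nt for Hba-x, 538 nt for Hba-a1 and 554 nt for Hba-a2. The effect of the models on TPM was not tested.

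**Figure D2:**
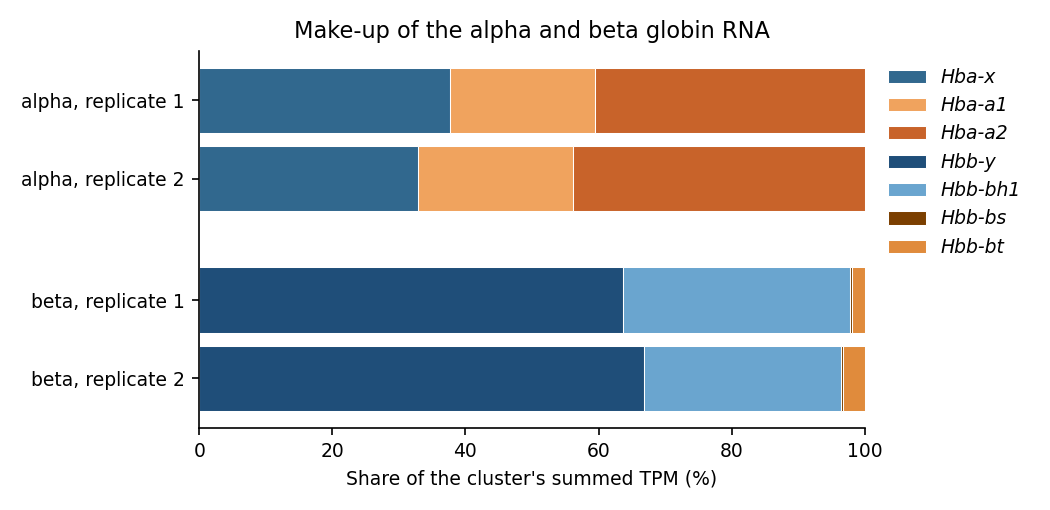
Share of each cluster's summed TPM held by each member, in percent, for the alpha and beta clusters in replicates 1 and 2, with embryonic genes in blue and adult genes in orange or brown. Blue fills 97.8% and 96.4% of the beta bars but 37.7% and 32.9% of the alpha bars.

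Set across the clusters, the embryonic alpha gene Hba-x stood at 0.334 times the embryonic beta sum in replicate 1 and 0.286 times in replicate 2. The adult alpha sum was 24.0-fold the adult beta sum in replicate 1 (11715 against 488 TPM) and 15.7-fold in replicate 2 (15935 against 1014 TPM). The adult alpha genes thus made up most of the alpha side of the near balance, while the adult beta genes made up little of the beta side.

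Between near-identical copies the deposited division was uneven. Hba-a2 stood 1.86-fold above Hba-a1 in replicate 1 and 1.88-fold in replicate 2, and held 65.0% and 65.2% of their sum. Taking the bounds of the deposited intervals against each other, the fold was 1.82 to 1.89 in replicate 1 and 1.84 to 1.91 in replicate 2. The sum of the pair, 160155 and 196143 counts, does not depend on the division. These narrow bounds hold only for the transcript models used.

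Of the adult beta copies, Hbb-bt stood 5.45-fold above Hbb-bs in replicate 1 (bounds 4.77 to 6.11) and 8.17-fold in replicate 2 (bounds 7.29 to 9.07). Hbb-bs held 15.5% of the sum in replicate 1 and 10.9% in replicate 2 (13.2 ± 3.26%). The bounds of the libraries did not overlap for this pair, whereas those of Hba-a1 and Hba-a2 did. The bounds for Hbb-bs and Hbb-bt, too, hold only for the transcript models used, and most of the Hbb-bs TPM lay on a retained-intron one. The sum of Hbb-bs and Hbb-bt was 8713 counts in replicate 1 and 16453 in replicate 2.

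Within each copy, the TPM was further divided among transcript models. Of the TPM of Hba-a1, 78.5% in replicate 1 and 79.5% in replicate 2 was placed on a transcript that GENCODE types as a retained intron, and 21.5% and 20.5% on the protein-coding one. In Hba-a2 the protein-coding transcript held 99.99% in replicate 1 and 100% in replicate 2, and the retained-intron transcript had 0.45 and 0.50 TPM. Both retained-intron models are 494 nt long, and neither has a 100-nt window of its own. The protein-coding model is 699 nt long for Hba-a1 and 554 nt long for Hba-a2. The copies thus differ in the files by which model took the reads, although their coding sequences differ at 1 base.

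Hbb-bs had 79.2% of its TPM in replicate 1 and 83.4% in replicate 2 on a retained-intron transcript, at 59.9 and 92.3 TPM. Its main protein-coding transcript held 20.8% and 16.6%, at 15.7 and 18.4 TPM, and another protein-coding one is listed at 0 in both libraries. The main and the retained-intron transcripts are 778 and 549 nt long in the deposited tables, against 628 and 344 nt in GENCODE M21, so the shared-window figures given for Hbb-bs rest on a later model. Hba-x has 2 protein-coding transcripts, of which the longer held 78.5% in replicate 1 and 76.4% in replicate 2. Hbb-y, Hbb-bh1 and Hbb-bt have 1 transcript each.

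**Figure D3:**
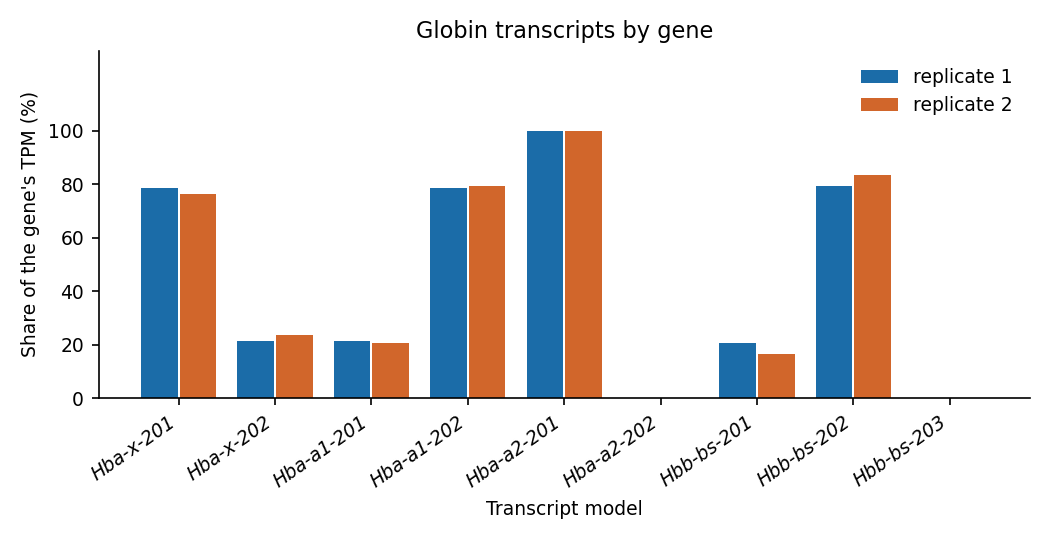
Percent of the gene's TPM placed on each transcript model, in replicate 1 (blue) and replicate 2 (orange), for the 4 members with more than 1 model. The retained-intron models, second of each gene but Hba-x, hold 78.5 to 83.4% in Hba-a1 and Hbb-bs and 0.01% or less in Hba-a2.

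All 7 globin genes were higher in replicate 2 than in replicate 1, with 1 of them past 2-fold. Hbb-bt was 2.35-fold higher in replicate 2 after TMM scaling of the counts (log2 ratio of replicate 1 over replicate 2 of -1.23). The rule for a difference asked for a mean count of at least 50, a change of 2-fold or more, and TPM intervals that did not overlap. By that rule 1 of the 7 members differed, against a background of 7.06% of 14124 genes tested in either direction, 4.75% in the direction of replicate 1 and 2.31% in that of replicate 2. Of the tested genes 1.07% lay at least as low as Hbb-bt.

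The other members had log2 ratios of -0.62 (Hbb-bs), -0.55 (Hba-a2), -0.55 (Hbb-y), -0.53 (Hba-a1), -0.28 (Hbb-bh1) and -0.22 (Hba-x). Their median with Hbb-bt was -0.55, against -0.01 over all genes tested, of which, at any size, 48.4% leaned to replicate 1 and 51.6% to replicate 2. The central 95% of all genes ran from -0.99 to 1.56, so 6 of the 7 members lay inside it. The alpha sum had a log2 ratio of -0.40 and the beta sum -0.49. Hba-a1 and Hba-a2 together had -0.54, and Hbb-bs and Hbb-bt together -1.17, which is 2.24-fold higher in replicate 2 and free of the division between those copies.

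The adult genes therefore leaned further towards replicate 2 than Hbb-bh1 and Hba-x, while Hbb-y lay with the adult alpha genes. There is 1 library on each side, so no test of these differences is possible. The spread between the libraries over 16536 genes was a common biological coefficient of variation of 0.259, and the fitted value at the abundance of the members ran from 0.184 for Hbb-bt to 0.419 for Hbb-y. All 7 stayed higher in replicate 2 under DESeq2 size factors, deposited TPM and spike-in scaling.

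**Figure D4:**
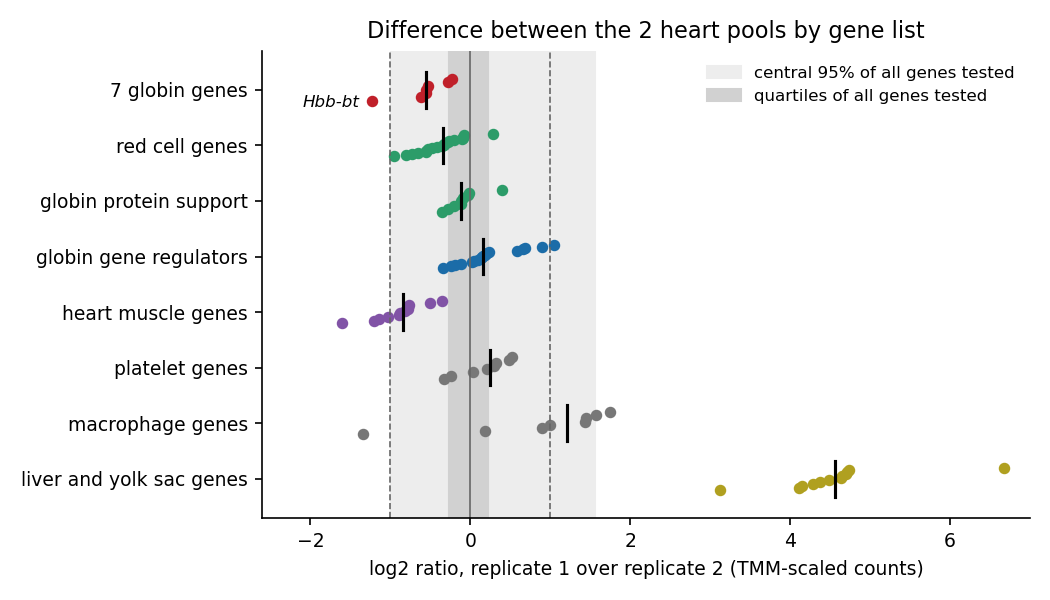
Log2 ratio of replicate 1 over replicate 2 of TMM-scaled counts for each tested gene of 8 lists, with a black line at each list's median, dashed lines at 2-fold, and shaded bands for the quartiles and central 95% of all 14124 genes tested. The 7 globin genes lie left of 0 with Hbb-bt at -1.23, red cell genes have a median of -0.35, heart muscle genes of -0.84, and liver and yolk sac genes of 4.56.

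Genes of the red cell were present throughout and leaned the same way as the globins. Of 21 red cell genes 20 were at 1 TPM or more in both libraries, the exception being Tspo2 (0.35 TPM in replicate 1 and 0.56 TPM in replicate 2), and none was at 0. Abundant ones were the anion exchanger of the red cell membrane Slc4a1 (74.0 TPM in replicate 1, 109 TPM in replicate 2), the ferrochelatase Fech (70.5 and 91.4 TPM) and the transferrin receptor Tfrc (60.0 and 69.6 TPM). Of 20 tested, 19 were higher in replicate 2 and 1 in replicate 1, none past the rule, with a median log2 ratio of -0.35. Their summed level was 782 TPM in replicate 1 and 890 TPM in replicate 2. By deposited TPM 16 of the 20 were higher in replicate 2.

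Genes that protect or serve hemoglobin differed by less than 2-fold between the pools. Of 10 listed, 9 were in the tables and all were at 1 TPM or more. The antioxidant enzymes Gpx1 (864 TPM in replicate 1 and 920 TPM in replicate 2) and Prdx2 (694 and 687 TPM) led, followed by the methemoglobin reductase Cyb5r3 (125 and 130 TPM) and the erythroid heme synthesis enzyme Alas2 (119 and 136 TPM). None of the 9 passed the rule. With TMM scaling 8 of the 9 were higher in replicate 2 (median -0.11), and with deposited TPM 4 were (median 0.02).

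All 18 listed regulators of globin genes were at 1 TPM or more in both libraries. Ldb1, which bridges the locus control region and the promoters, had 67.0 TPM in replicate 1 and 53.8 TPM in replicate 2, and Klf1, an activator of adult beta globin, had 45.1 and 45.8 TPM. Kdm1a, a histone demethylase of repressor complexes, had 41.8 and 26.7 TPM, and Klf3, a repressor related to Klf1, had 31.3 and 26.3 TPM. With TMM scaling 14 of the 18 were higher in replicate 1 (median 0.15), and with spike-in scaling 5 were (median -0.17), so their lean depends on the scaling. Zfpm1, the partner of Gata1, was the 1 regulator of 18 past the rule (10.6 TPM in replicate 1 and 4.80 TPM in replicate 2, log2 ratio 1.05) and was singled out after its values were seen. By the same rule 4.75% of all genes tested differed in that direction.

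The remaining globin family genes had lower mean TPM than any member, with 1 of them near Hbb-bs. Myoglobin (Mb), the oxygen store of muscle, had 23.0 TPM in replicate 1 and 76.8 TPM in replicate 2, where Hbb-bs had 75.6 and 111 TPM, and it passed the rule (log2 ratio -1.84), and Cygb passed it in the other direction (2.31 and 0.88 TPM, log2 ratio 1.28). The share of all genes tested past the rule was 2.31% in the direction of replicate 2 and 4.75% in that of replicate 1. Hbq1b, a theta-type gene within the alpha cluster, had 11.6 and 14.2 TPM, and its copy Hbq1a had 0.17 and 0.21 TPM. In the beta cluster Hbb-bh2 had 11 counts in replicate 1 and 3 in replicate 2, the pseudogene Hbb-bh0 had 18 and 11, and the pseudogene Hbb-bh3 had 0 in both, which allows up to 3 counts per library. Ngb had 11 and 4 counts, and the pseudogene Hba-ps4 1 and 0.

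The genes on either side of the clusters were far below the most abundant globins. Next to the beta genes lie olfactory receptor genes, and Olfr67, Olfr68, Olfr69, Olfr66 and Olfr64 had 0 counts in both libraries, although Olfr67 ends 20703 bp from Hbb-bt and Olfr66 begins 26227 bp from Hbb-y. Olfr65, the third gene on that side, was not analysed here. The gene nearest after the alpha cluster is Hbq1a, 2771 bp from Hba-a2, with the 0.17 and 0.21 TPM given above, and the other neighbours were at 12.6 to 38.9 TPM. Nprl3, whose introns hold enhancers of the alpha genes, ends 8693 bp before Hba-x and had 36.7 TPM in replicate 1 and 36.8 TPM in replicate 2. Mpg had 21.8 and 18.0 TPM, Rhbdf1 35.1 and 34.7 TPM, Sh3pxd2b 14.0 and 12.6 TPM, and Ubtd2 38.9 and 26.4 TPM.

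**Figure D5:**
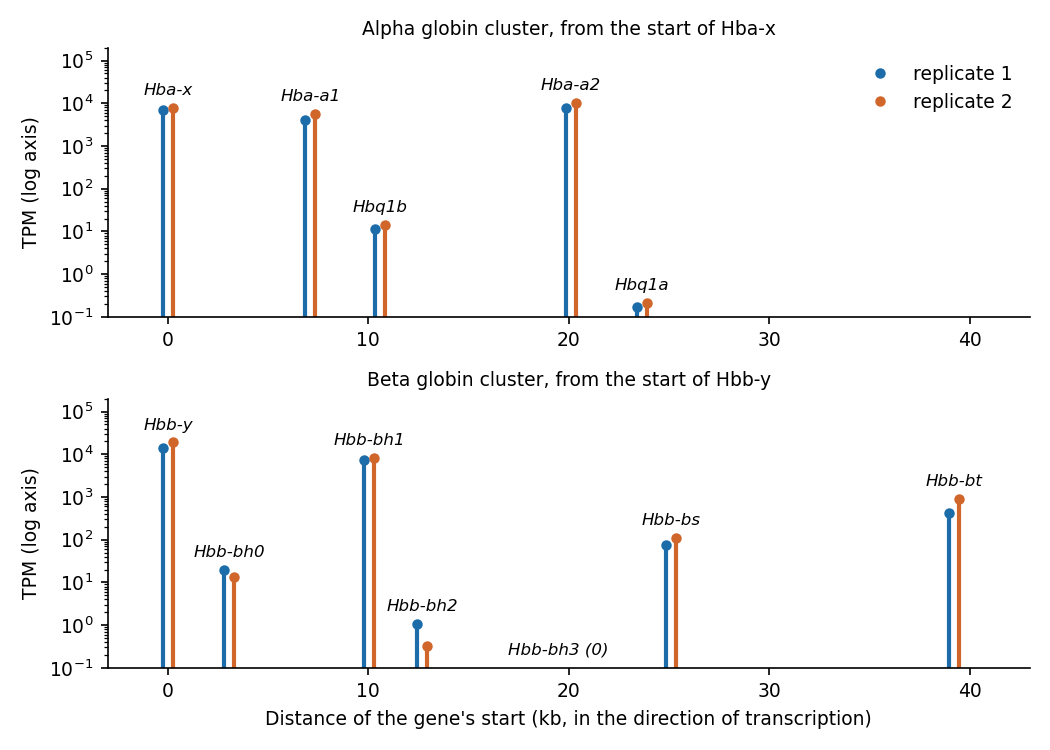
TPM on a log axis of the globin family genes of each cluster at the distance of their start, in kb, from the start of Hba-x (top) or Hbb-y (bottom) in the direction of transcription, in replicate 1 (blue) and replicate 2 (orange). Hba-x, Hba-a1, Hba-a2, Hbb-y and Hbb-bh1 stand at 4102 TPM or more, Hbb-bt and Hbb-bs at 904 TPM or less lie farthest from Hbb-y, and the pseudogene Hbb-bh3 is at 0.

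Both pools held clear heart muscle RNA, and they differed in other tissue markers as well as in globin. All 12 heart muscle genes were higher in replicate 2, 4 of them past the rule (median -0.84), with 6437 TPM of Actc1 in replicate 1 and 11048 TPM in replicate 2, 5785 and 6877 TPM of Myl7, 2516 and 5157 TPM of Myl2, and 2000.5 and 3797 TPM of Nppa. Their summed level was 23466 TPM in replicate 1 and 39146 TPM in replicate 2. All 12 tested liver and yolk sac genes were higher in replicate 1 and past the rule (median 4.56), and the list of 15 summed to 1782 TPM there and 90.03 TPM in replicate 2. Over all genes tested, 4.75% passed the rule in the direction of replicate 1 and 2.31% in that of replicate 2. Afp had 737 and 27.6 TPM, Trf 265 and 28.0 TPM, Apoa2 262 and 13.8 TPM and Rbp4 184 and 7.68 TPM, while Apoh and Ahsg were below 1 TPM in both and none was at 0.

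Of 8 tested macrophage genes 7 were higher in replicate 1, 4 of them past the rule, and Lyz2 was past it in replicate 2 (22.7 TPM in replicate 1 and 53.5 TPM in replicate 2). C1qb had 11.2 and 3.80 TPM, Csf1r 3.80 and 1.90 TPM and Cd68 3.69 and 1.71 TPM, with Adgre1 and Ptprc below 1 TPM in both. The 10 macrophage genes summed to 52.3 TPM in replicate 1 and 64.8 TPM in replicate 2, of which Lyz2 alone made up 22.7 and 53.5 TPM. The higher sum in replicate 2 thus rests on Lyz2. None of 8 platelet genes passed the rule (median 0.25, and -0.07 with spike-in scaling), with Pf4 at 61.9 and 56.6 TPM, Itga2b at 16.3 and 11.2 TPM, Ppbp at 11.2 and 8.32 TPM and Itgb3 at 7.57 and 8.35 TPM, and a sum of 114 TPM in replicate 1, against 98.3 TPM in replicate 2. The part of these other tissues in the globin difference between the pools was not tested.

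By Euclidean distance of log2(TPM + 1) over the 2 libraries, the nuclear protein-coding genes nearest to Hbb-y, with the 7 members left out of the search, were Actc1 (1.35), Myl7 (1.93) and Ppia (2.77). Nearest to Hbb-bs were Lrrfip1 (0.016), Etfdh (0.038) and Slc4a1 (0.042), and nearest to Hbb-bt were Actn2 (0.038), Mybpc3 (0.147) and Acta1 (0.388). The genes named for Hbb-y were only the closest outside the members, since Ppia had 4293 TPM in replicate 1 and 4145 TPM in replicate 2. With 2 libraries this measure compares levels and no more.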

How the data were processed

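Hearts of 1 group were sequenced in 2 libraries, a separate pool of embryos each per the labels. The deposited gene and transcript tables hold expected counts (estimated counts per feature, not normalised), TPM, FPKM, posterior means, bounds of a TPM credibility interval (used as a score), and the percent of a gene's TPM held by each transcript, all made by the authors. The assembly was mm10 and the annotation GENCODE M4 per the labels and the deposited description. For the quantifying program, its version, strand and ribosomal RNA removal, details were not given in the sources used here. Overlapping genes are therefore uncertain. The labels link a SMARTer Ultra Low kit manual, and RNA was extracted with mirVana.

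Of 43346 mouse genes among 69691 features, 42462 were matched to GENCODE M21 symbols and 884 were not. The depth was 45205713 expected counts in replicate 1 and 41070978 in replicate 2. Mouse genes took 43295923 and 39786163 of these, and the 7 globin genes 662899 and 761133 (1.53% and 1.91% of mouse counts). The floor for a gene at 0 is 3 counts in a library. Floor and intervals describe counting error alone, because without molecular identifiers PCR copies are counted as reads.

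Ratios between libraries are log2 values of TMM-scaled rounded expected counts with a prior count of 0.5 (edgeR 4.0.16, limma 3.58.1, R 4.3.3), which also gave the coefficient of variation; DESeq2 1.42.0 gave alternative size factors. Sums, shares and sequence comparisons were made in Python 3.11.15 with numpy 2.4.6 and pandas 2.3.3, and plots with matplotlib 3.10.9. The window of 100 nt follows from the deposited effective lengths, which are 99 nt below the lengths. The ratio step was tested on simulated data with a smaller spread than these libraries show, which bears on its arithmetic only. The members and lists were chosen with earlier results of these data known. Named genes were the members, other globin family genes, the 4 most abundant genes of each list and up to 4 below 1 TPM in both libraries, the 3 nearest protein-coding genes on each side of a cluster, and the 3 genes of most like pattern. A gene that this rule names is not reported here. Of the listed genes, Ahsp, Hba-ps3, Hbb-b1 and Hbb-b2 were not found in the tables. Alternatives covered unit, table, scaling, prior count, count minimum, denominator and each library alone.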

Additional observations from a re-analysis of the deposited data

How the results depend on the processing

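No cluster sum, share or ratio that was put through the alternatives changed direction, but 3 gene lists did. The regulators had a median of 0.15 with TMM and -0.17 with spike-in scaling (4 and 13 of 18 higher in replicate 2), platelet genes 0.25 and -0.07, and the protein support genes -0.11 with TMM and 0.02 with deposited TPM. Expected counts in place of TPM gave an alpha over beta log2 ratio of -0.30 (main value -0.23), Hbb-y over Hbb-bs of 7.66 (7.47), Hba-x over the adult alpha sum of -0.34 (-0.88), a Hba-x share of 44.2% (35.3%), a Hba-a2 share of 66.0% (65.1%) and a 7-gene share of 1.80% (5.62%). The order of the members was not put through the alternatives, and expected counts change it. By counts Hba-x stood above Hbb-bh1 and Hba-a2 in both libraries, and Hbb-bh1 above Hba-a2 in replicate 1, each the reverse of TPM. Counts carry no correction for length. With no count minimum 1632 genes differed between the libraries against 997, and the common coefficient of variation without a filter was 0.312 against 0.259, both from adding genes of low count. FPKM, posterior means and transcript sums moved the shares and ratios by less than the spread between the libraries. With 2 libraries, a value from each library alone cannot move beyond that spread, so it says nothing of stability. Of the genes that differed, 67.3% were higher in replicate 1 with TMM, 67.2% with DESeq2 size factors, 76.1% with deposited TPM and 33.6% with spike-in scaling, which put the median of all genes at -0.34. Deposited TPM put it at 0.09. Ratios of the members ran from -1.56 to -0.55 with spike-in scaling and from -1.13 to -0.14 with deposited TPM. The lists by scaling were counted after the data were seen.

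No paired analysis was possible because there is 1 group, and leaving out a library leaves no ratio between pools. Depth limits Hbb-bh2, Hba-ps4, Ngb and Hbq1a, each at 11 counts or fewer, and Hbb-bh0, at 18 counts in replicate 1 and 11 in replicate 2.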
